A study of Mus musculus with 20 samples.

Results

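Complement expression was examined through 9 of the 33119 genes in the hippocampal count table: C1qa, C1qb and C1qc, which encode the subunits of C1q, the components C4b and C3, the receptors C3ar1 and C5ar1, and the regulators Serping1 and Cd55. The rule that chose them is a list of gene names and uses no measured value, though the list was drawn up with earlier results of these data known. All 9 were among the 21724 genes that passed the filter on low counts. RNA came from hippocampi of 20 C57BL/6 mice aged 16 months, 5 in each of 4 groups. Males were hAPOE3 (S154 to S158) or hAPOE4 (S174 to S178), and so were females (hAPOE3, S144 to S148, and hAPOE4, S164 to S168). The mice were homozygous targeted replacement animals, in which human APOE3 or APOE4 stands in place of mouse Apoe, so that every group carries a human APOE gene and none served as a mouse Apoe control. They were perfused with phosphate buffered saline before dissection, and no treatment is given for any group.

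Complement is a cascade of plasma and tissue proteins that tags targets for removal. In the classical pathway C1q binds a target and the proteases of the C1 complex cleave C4 and C2. This leads to cleavage of C3, release of the peptides C3a and C5a, and deposition of fragments that phagocytes recognise. In the brain C1q comes mainly from microglia, C4b is strongly expressed by astrocytes and oligodendrocytes, and the classical pathway is known for its part in the removal of synapses.

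The 3 C1q genes lie next to each other within 18675 bases of chromosome 4 and are all read from the minus strand: C1qb at chr4:136880129-136886187, C1qc at chr4:136889804-136893065 and C1qa at chr4:136895917-136898803 (GRCm38). Their upstream sequence is shown because they varied together from mouse to mouse, as described below. RefSeq promoter windows (GRCm38.p6, 250 bases before the start) existed for 6 of the 9 genes and not for C1qa, C4b and Serping1. Capitals mark GAGGAA, the core letters recognised by PU.1, an ETS factor of microglia and other myeloid cells, on the strand of the gene in C1qb and as TTCCTC, the same letters on the other strand, in C1qc. The C1qb run is the whole window, chr4:136886201-136886450, and the C1qc run is the 99 bases of its window that lie upstream of both the RefSeq and the GENCODE start, chr4:136893066-136893164. Both are written 5′ to 3′ along the minus strand.
C1qb: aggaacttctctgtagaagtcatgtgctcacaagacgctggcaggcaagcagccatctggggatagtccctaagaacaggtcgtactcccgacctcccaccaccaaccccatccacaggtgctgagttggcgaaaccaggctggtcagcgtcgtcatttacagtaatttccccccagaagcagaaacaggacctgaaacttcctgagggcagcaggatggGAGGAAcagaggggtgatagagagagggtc
C1qc: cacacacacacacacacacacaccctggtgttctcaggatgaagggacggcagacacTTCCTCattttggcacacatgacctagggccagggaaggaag
GAGGAA on either strand was present in 2 of the 6 windows and in 23.3% of all 32851 windows of the same length, so its presence in these windows is a description and marks no binding site.

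Expression was measured as estimated counts per gene. Levels are given as CPM, counts scaled to the total of their library after TMM normalization, and differences as log2 fold changes from edgeR's quasi-likelihood test in 1 model over the 4 groups, with Benjamini-Hochberg adjustment over all genes tested. The threshold was an adjusted p of 0.05. Total counts ran from 35778879 to 52520279 per mouse, and all 190 pairs of libraries differed by more than sampling noise. Markers of hippocampal neurons were present in all mice, but summed to 475 to 556 CPM in the males S157, S158, S176 and S178 and to 712 to 978 CPM in the other 16 mice. A list of oocyte genes summed to 84 CPM or more in 4 of 5 hAPOE4 males and to at most 4.68 CPM in every other mouse. Choroid plexus markers, which belong to tissue next to the hippocampus, summed to 273 to 410 CPM in 8 mice and to 934 to 9500 CPM in the other 12, of which 2 were hAPOE3 males, 2 hAPOE4 males and 4 of each genotype among females. In bulk tissue, fewer cells of a type and less RNA per cell cannot be told apart.

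Between genes, levels were compared per kb of exon. C1qb (38.8 CPM per kb, mean of 20 mice) and C1qa (36 CPM per kb) stood highest, above 94.9% and 94.4% of the 20869 tested genes with a known length. C4b followed with 23.3 and C1qc with 17.0 CPM per kb. Serping1 lay near the middle of all genes with 3.54 CPM per kb, above 55.1% of them. Cd55 (1.20), C3 (0.92) and C3ar1 (0.695) were lower, and C5ar1 was lowest with 0.138 CPM per kb, above 7.05% of genes.

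**Figure D1:**
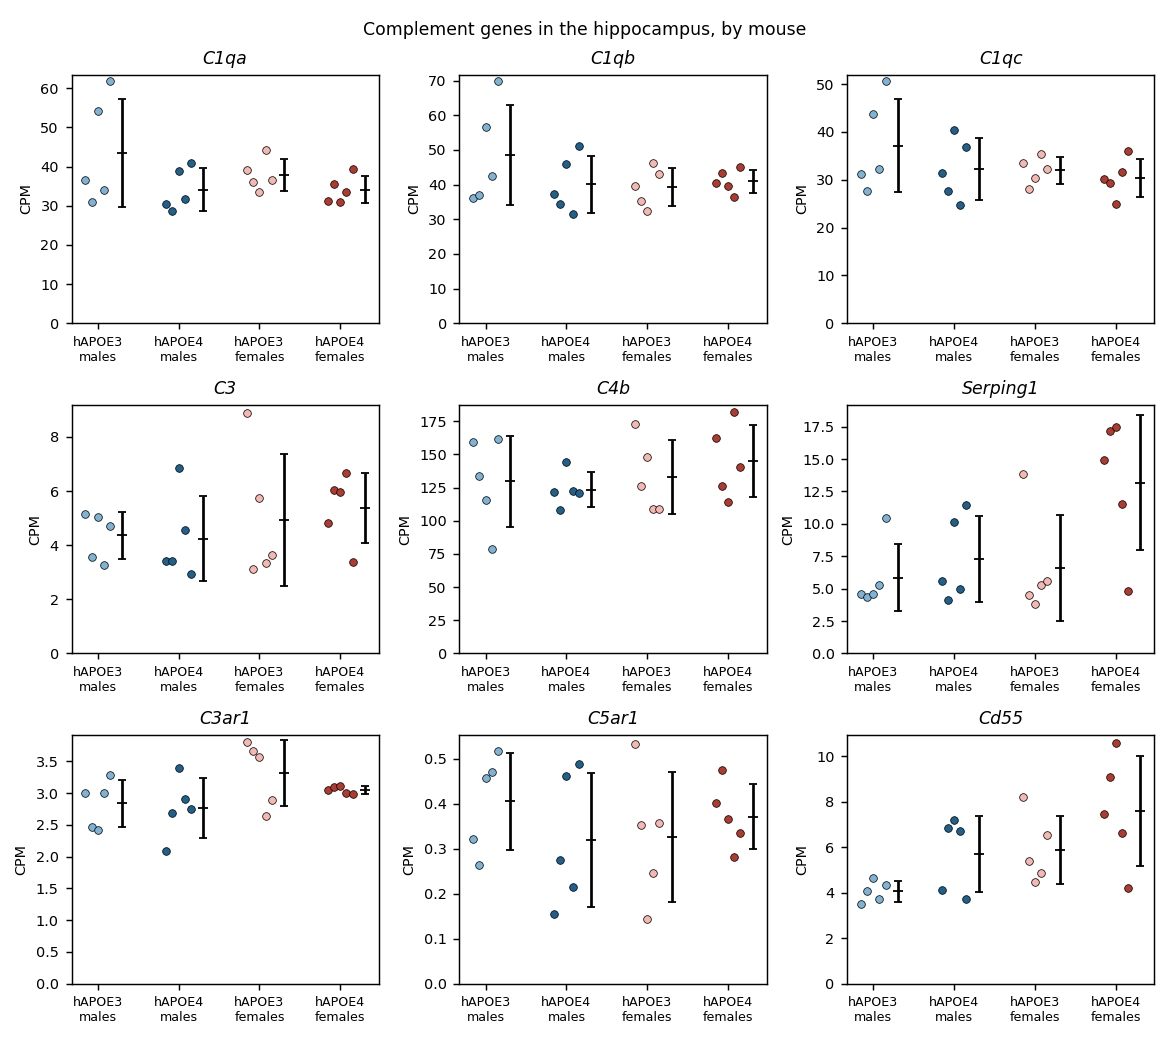
CPM of each of the 9 complement genes (vertical axes, from 0) in the 4 groups, with 1 point per mouse and, beside each group, the mean with bars of 1 SD (n = 5). The groups overlap in every panel, and Serping1 lies in 2 separate ranges, 3.85 to 5.58 and 10.1 to 17.4 CPM.

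None of the 9 genes passed the threshold in any comparison. Between hAPOE4 and hAPOE3 males 0 of 9 passed, where 0.621% of all genes tested did, and 2 of 9 had an unadjusted p under 0.05 (9.06% of all genes). Between hAPOE4 and hAPOE3 females the count was 0 of 9 against 0.667% of all genes, with 1 of 9 at an unadjusted p under 0.05 (10.1% of all genes). At these rates fewer than 1 member would be called at the share of all genes, so the absence of calls does not set the complement genes apart.

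Between the sexes no member passed either. Females against males in hAPOE3 mice gave 0 of 9 genes (0.0414% of all genes passed), with 1 of 9 at an unadjusted p under 0.05 (5.22% of all genes). Females against males in hAPOE4 mice gave 0 of 9 (0.437%), with 1 of 9 unadjusted (5.8%). The interaction of sex and APOE, the difference between the APOE contrasts of the sexes, gave 0 of 9 (0.184%) and 0 of 9 unadjusted (2.54%).

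Contrasts over all 20 mice had narrower intervals. For hAPOE4 against hAPOE3 over both sexes 0 of 9 genes passed, where 2.45% of all genes did, and 3 of 9 had an unadjusted p under 0.05 (17.9% of all genes). For females against males over both genotypes 0 of 9 passed (0.129%), and 1 of 9 was under 0.05 unadjusted (10% of all genes). The DESeq2 Wald test and limma on the deposited normalized counts also called 0 of 9 in each of the 7 comparisons. Their counts at an unadjusted p under 0.05 lay between 0 and 3 of 9 for DESeq2 and between 0 and 2 of 9 for limma.

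None of the 9 genes had separate ranges in 2 groups. The values of 0 of 9 genes were without overlap between hAPOE4 and hAPOE3 males (1.44% of all genes), between hAPOE4 and hAPOE3 females (3.27%), between the sexes in hAPOE3 mice (0.723%) and between the sexes in hAPOE4 mice (0.723%). The median log2 fold change of the 9 genes was -0.07 for hAPOE4 against hAPOE3 males and 0.12 in females, beside medians of all genes within 0.01 of 0. It was 0.04 for females against males in hAPOE3 mice and 0.22 in hAPOE4 mice. Each of these medians is the value of a single gene. The 0.22 is that of C5ar1 (interval -0.49 to 0.92) and the 0.12 that of C3 (interval -0.46 to 0.70). The -0.07 and the 0.04 are those of C4b. The spread of medians over other sets of 9 genes was not tested, so these medians do not establish a shift of the set.

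**Figure D2:**
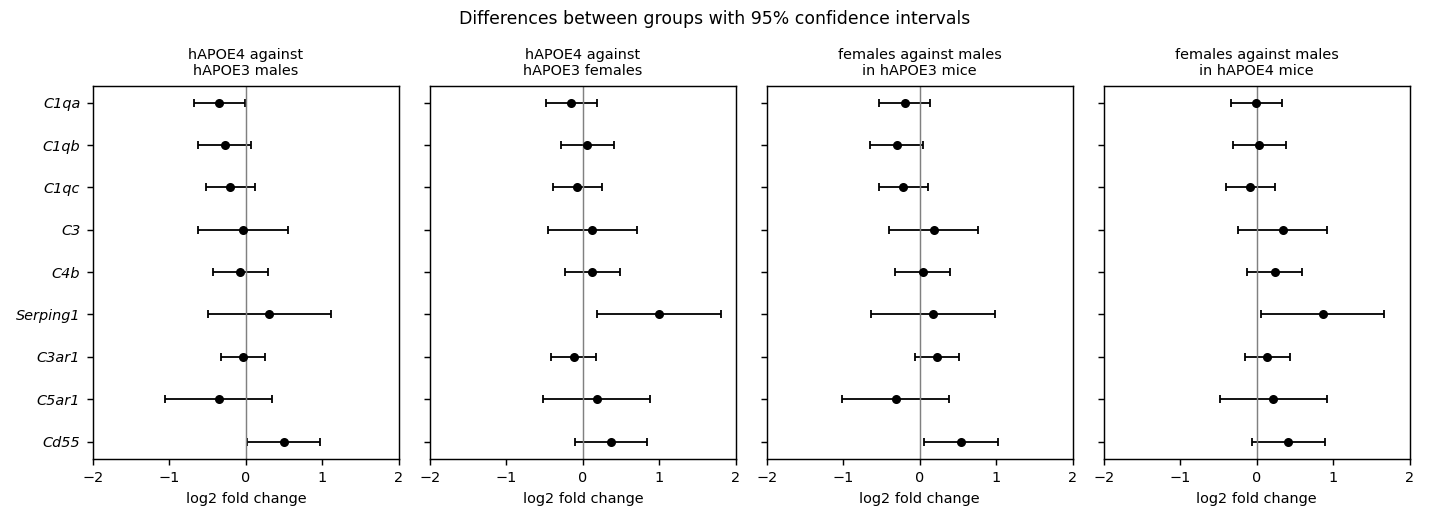
Log2 fold changes (horizontal axes) of the 9 genes in the 4 comparisons between groups, with points for the edgeR estimates and bars for their 95% confidence intervals. Intervals of Serping1 and C5ar1 are the widest, and no gene passed the threshold after adjustment.

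C1qa, the A chain of the recognition molecule, was measured at 36.5, 30.9, 54.2, 33.9 and 61.9 CPM in the hAPOE3 males S154 to S158. Its values were 30.5, 28.6, 38.9, 31.7 and 41.0 CPM in the hAPOE4 males S174 to S178. The hAPOE3 males thus held the highest 2 values of the study, in S156 and S158, while the other 3 lay within the range of the hAPOE4 males. The means were 43.5 ± 13.7 and 34.1 ± 5.44 CPM (SD of 5 mice, as in all means below). On the log2 scale they differed by -0.35 (SE 0.16, 95% interval -0.68 to -0.02; edgeR adjusted p = 0.526). Without S158 the difference was -0.19 (edgeR adjusted p = 0.686).

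C1qa was 39.1, 36, 33.5, 44.2 and 36.7 CPM in the hAPOE3 females S144 to S148. In the hAPOE4 females S164 to S168 it was 31.2, 35.5, 30.9, 33.5 and 39.3 CPM. These groups overlapped and their means, 37.9 ± 4.05 and 34.1 ± 3.47 CPM, differed by -0.15 on the log2 scale (interval -0.49 to 0.18). Over both sexes the C1qa contrast of hAPOE4 against hAPOE3 was -0.25 (interval -0.49 to -0.02; edgeR adjusted p = 0.247).

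C1qb, the B chain, averaged 48.5 ± 14.5 and 40.0 ± 8.22 CPM in hAPOE3 and hAPOE4 males, and 39.3 ± 5.55 and 41.0 ± 3.36 CPM in hAPOE3 and hAPOE4 females. C1qc, the C chain, averaged 37.1 ± 9.71 and 32.2 ± 6.41 CPM in males, and 32.0 ± 2.83 and 30.4 ± 4.0 CPM in females. As for C1qa, the hAPOE3 males had the widest spread, and both genes were highest in S158 with 69.8 CPM of C1qb and 50.7 CPM of C1qc. The log2 fold change of hAPOE4 against hAPOE3 males was -0.28 (interval -0.62 to 0.07) for C1qb and -0.20 (-0.53 to 0.12) for C1qc. In females it was 0.06 (-0.29 to 0.40) and -0.07 (-0.40 to 0.25). Without S158 the contrasts in males were -0.11 for C1qb and -0.07 for C1qc. For C1qb in females the interval spans folds of 0.82 to 1.32, so a difference of that size is not excluded by the missed threshold.

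The 3 C1q genes varied together among mice of the same group. After subtraction of the group means from log2 CPM, and with permutation within groups, C1qa and C1qb had a Pearson's r of 0.899 over 20 mice (permutation p = 0.00011, adjusted over 28 pairs 0.00103) and a Spearman's rho of 0.862 (permutation p = 0.00042, adjusted 0.00392). C1qa and C1qc had an r of 0.893 (permutation p = 7e-05, adjusted 0.00103) and a rho of 0.851 (permutation p = 0.00042, adjusted 0.00392). C1qb and C1qc had an r of 0.879 (permutation p = 9e-05, adjusted 0.00103) and a rho of 0.859 (permutation p = 0.00021, adjusted 0.00392).

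Without the 2 mice farthest from the median, S156 and S158 for C1qa and S158 and S178 for C1qb, the 3 correlations were 0.843, 0.840 and 0.834. They were the 3 of 28 pairs among 8 members that passed the threshold by Pearson's r. Genes outside the C1q family also followed the mean of the 3 within groups, such as Ufsp1 (r = 0.922), Phf23 (0.916) and Pld4 (0.909). These were picked as the closest among 12800 genes, so their r is not on a par with that of pairs set beforehand. Correlations of this size were thus also found outside the C1q genes, and the part of shared library composition was not tested. Serping1 was left out of these pairs because its values fell into separate ranges. The labels give no batch, so no values within batches could be computed.

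The ratio of C1qb to C1qa ran from 0.97 to 1.30 in the 20 mice. It averaged 1.12 ± 0.108 and 1.17 ± 0.101 in hAPOE3 and hAPOE4 males, and 1.04 ± 0.082 and 1.21 ± 0.0909 in hAPOE3 and hAPOE4 females. The female groups overlapped through S148 (1.17), and differences in the ratio were not tested. Summed over the 3 genes, C1q reached 182.4 CPM in S158 and 154.6 CPM in S156, while the other hAPOE3 males lay at 95.7 to 109 CPM. Group means of the sum were 129 ± 37.6 and 106 ± 19.4 CPM in hAPOE3 and hAPOE4 males, and 109 ± 11.8 and 105 ± 9.44 CPM in hAPOE3 and hAPOE4 females.

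Homeostatic microglia markers, 12 of 12 tested, were not raised in S158: they summed to 425 CPM there, the median of the hAPOE3 males, and to 494 CPM in S156, the highest of that group. Disease-associated microglia markers, 12 of 12 tested, summed to 239 CPM in S158, the highest of the 20 mice, and to 210 CPM in S156, while the other hAPOE3 males lay at 183 to 191 CPM. Across groups the homeostatic sum ran from 397 to 494 and 416 to 463 CPM in hAPOE3 and hAPOE4 males, and from 398 to 475 and 439 to 484 CPM in hAPOE3 and hAPOE4 females. Divided by it, the C1q sum was 0.294 ± 0.0841 and 0.243 ± 0.044 in hAPOE3 and hAPOE4 males, and 0.254 ± 0.042 and 0.233 ± 0.0265 in hAPOE3 and hAPOE4 females. S158 also had the highest sum of oligodendrocyte markers, 13500 CPM, and a low sum of hippocampal neuron markers, 504 CPM, and their part in its C1q level was not tested. Without the 4 males with low hippocampal neuron markers, S158 among them, the log2 fold change of C1qa between hAPOE4 and hAPOE3 males was -0.44 (edgeR adjusted p = 0.762), and that of C1qb was -0.35 (edgeR adjusted p = 0.937).

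**Figure D3:**
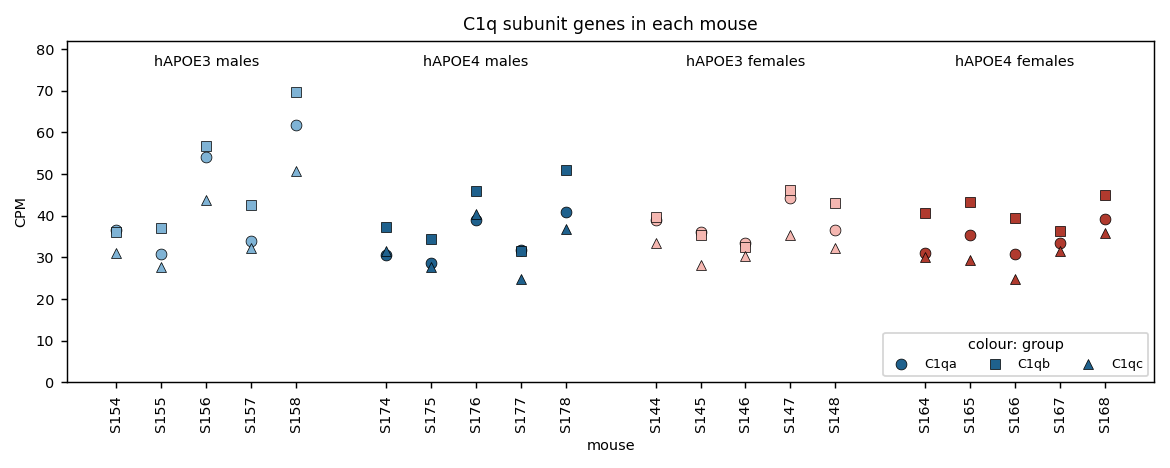
CPM of C1qa, C1qb and C1qc (vertical axis, from 0) in each of the 20 mice (horizontal axis), with a marker shape per gene and a colour per group. The 3 genes stand high together in S156 and S158 and lie between 24.7 and 51.1 CPM in the other 18 mice.

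C4b (chr17:34728380-34743882), the classical pathway component that C1 cleaves, had the highest counts of the 9 genes. It measured 159.5, 133.7, 115.8, 78.5 and 161.7 CPM in the hAPOE3 males S154 to S158 and 121.8, 108.2, 144.4, 122.6 and 120.9 CPM in the hAPOE4 males S174 to S178. The hAPOE3 females S144 to S148 had 173.2, 126.4, 148.4, 108.7 and 108.7 CPM, and the hAPOE4 females S164 to S168 had 162.2, 126.3, 114.2, 182.3 and 140.7 CPM. The 4 ranges overlapped, with the lowest single value in S157 and the highest in S167.

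Means of C4b were 129.8 ± 34.4 and 123.6 ± 13 CPM in hAPOE3 and hAPOE4 males, and 133.1 ± 27.7 and 145.2 ± 27.4 CPM in hAPOE3 and hAPOE4 females. The log2 fold change of hAPOE4 against hAPOE3 was -0.07 (interval -0.43 to 0.29) in males and 0.13 (-0.24 to 0.49) in females, and females exceeded males by 0.23 (-0.13 to 0.59) in hAPOE4 mice. Markers of reactive astrocytes, 10 of 10 tested, summed to 459 to 594 CPM in hAPOE3 females and to 634 to 776 CPM in hAPOE4 females. These ranges did not overlap, as for 3.27% of single genes, while those of hAPOE3 and hAPOE4 males, 363 to 599 and 563 to 651 CPM, did. The reactive astrocyte sum in mice with high fibroblast and meninges markers is given below. Astrocyte markers, 10 of 10 tested, overlapped between genotypes, at 3250 to 5130 and 3910 to 5030 CPM in males and 3590 to 5320 and 4150 to 4800 CPM in females. Oligodendrocyte markers, 8 of 8 tested, reached 13500 CPM in S158 and 9810 CPM in S176, with the highest C4b of their groups. Among hAPOE3 females they were highest in S148 (6090 CPM), where C4b was 108.7 CPM. The relation of these lists to C4b was not tested. C4a, a near copy of C4b 65209 bases away, was counted at 4.63 to 5.60 CPM in group means, and the split of reads between the copies is uncertain.

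C3 (chr17:57203970-57228136), on which the pathways converge, was measured at 5.17, 3.58, 5.05, 3.29 and 4.73 CPM in hAPOE3 males S154 to S158. The hAPOE4 males S174 to S178 had 3.42, 3.43, 6.84, 4.55 and 2.95 CPM. The hAPOE3 females S144 to S148 had 8.87, 3.12, 5.74, 3.33 and 3.65 CPM, and the hAPOE4 females S164 to S168 had 4.82, 6.03, 5.97, 6.68 and 3.37 CPM. The ranges of all 4 groups overlapped, with the highest value in S144.

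Group means of C3 were 4.36 ± 0.868 and 4.24 ± 1.57 CPM in hAPOE3 and hAPOE4 males, and 4.94 ± 2.43 and 5.38 ± 1.31 CPM in hAPOE3 and hAPOE4 females. The largest C3 contrast between groups was that of females against males in hAPOE4 mice, with a log2 fold change of 0.34 (SE 0.28, interval -0.24 to 0.92; edgeR adjusted p = 1.0). The direction of 4 C3 contrasts turned when single mice were left out, with the ranges given under the processing alternatives. The gene overlaps the microRNA gene Mir6978 on the same strand.

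C3ar1 (chr6:122847138-122856161), the receptor for C3a on microglia and other myeloid cells, showed little spread. Group means were 2.84 ± 0.373 and 2.77 ± 0.468 CPM in hAPOE3 and hAPOE4 males. They were 3.32 ± 0.514 CPM in hAPOE3 females and 3.05 ± 0.0583 CPM in hAPOE4 females, whose 5 values ran from 2.99 to 3.11 CPM. Its contrast of females against males over both genotypes was 0.18 on the log2 scale (interval -0.02 to 0.39; edgeR adjusted p = 0.561). Genotype contrasts of C3ar1 were -0.04 (-0.33 to 0.25) in males and -0.12 (-0.41 to 0.17) in females, which as folds are intervals of 0.796 to 1.19 and 0.752 to 1.12.

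C5ar1 (chr7:16246743-16259540), the receptor for C5a, rested on 5 to 28 counts per mouse. Its means were 0.406 ± 0.108 and 0.319 ± 0.149 CPM in hAPOE3 and hAPOE4 males, and 0.326 ± 0.146 and 0.371 ± 0.0725 CPM in hAPOE3 and hAPOE4 females. The intervals of its log2 fold change ran from -1.05 to 0.35 for hAPOE4 against hAPOE3 males and from -0.53 to 0.88 in females, so differences within these bounds are not excluded. C5ar1 is 3.44 Mb from Apoe, the replaced locus.

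Cd55 (chr1:130439027-130462744), a membrane protein that speeds the decay of the C3 convertases, was measured at 3.51, 4.06, 4.66, 3.71 and 4.36 CPM in hAPOE3 males S154 to S158. The hAPOE4 males S174 to S178 had 4.10, 6.84, 7.18, 6.72 and 3.70 CPM, so that 3 lay above every hAPOE3 male and 2 within their range. The hAPOE3 females S144 to S148 had 8.19, 5.38, 4.48, 4.85 and 6.53 CPM. The hAPOE4 females S164 to S168 had 7.49, 9.07, 10.6, 6.63 and 4.23 CPM, of which S168 lay below all hAPOE3 females and 2 above them.

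Mean Cd55 was 4.06 ± 0.468 and 5.71 ± 1.66 CPM in hAPOE3 and hAPOE4 males, and 5.89 ± 1.5 and 7.60 ± 2.42 CPM in hAPOE3 and hAPOE4 females. The log2 fold change of hAPOE4 against hAPOE3 was 0.49 (SE 0.23, interval 0.01 to 0.97; edgeR adjusted p = 0.536) in males and 0.37 (SE 0.23, interval -0.11 to 0.84; edgeR adjusted p = 0.636) in females. Females against males gave 0.54 (interval 0.06 to 1.02; edgeR adjusted p = 0.805) in hAPOE3 mice and 0.41 (interval -0.06 to 0.89; edgeR adjusted p = 0.948) in hAPOE4 mice. Over both sexes the genotype contrast was 0.43 (edgeR adjusted p = 0.164), and over both genotypes the sex contrast was 0.47 (edgeR adjusted p = 0.32). Without S166 the genotype contrast in females was 0.22 and the sex contrast in hAPOE4 mice 0.26. The gene overlaps the antisense gene Gm16083, whose reads could not be told apart from those of Cd55 if the counting ignored strand.

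Serping1 (chr2:84765387-84775444), which encodes the C1 inhibitor that stops the proteases of the C1 complex, had the widest differences between mice. In the hAPOE3 females S144 to S148 it was 13.8, 4.48, 3.85, 5.27 and 5.58 CPM. In the hAPOE4 females S164 to S168 it was 14.9, 17.2, 17.4, 11.6 and 4.85 CPM. Thus 4 of 5 hAPOE4 females and 1 of 5 hAPOE3 females stood above 10.1 CPM, and the groups overlapped through S144 and S168.

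Serping1 in the hAPOE3 males S154 to S158 was 4.61, 4.37, 4.59, 5.29 and 10.4 CPM. The hAPOE4 males S174 to S178 had 5.58, 4.13, 10.1, 4.96 and 11.5 CPM. The higher range thus held S158 among the hAPOE3 males and S176 and S178 among the hAPOE4 males, and no mouse of the study lay between 5.58 and 10.1 CPM.

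Mean Serping1 was 6.61 ± 4.10 CPM in hAPOE3 females and 13.2 ± 5.22 in hAPOE4 females, a log2 fold change of 1.00 (SE 0.39, interval 0.19 to 1.80; edgeR adjusted p = 0.347). In males the means were 5.86 ± 2.58 and 7.26 ± 3.32 CPM, a log2 fold change of 0.31 (interval -0.50 to 1.11; edgeR adjusted p = 0.81). The difference between these contrasts, the interaction, was 0.69 (SE 0.55, interval -0.45 to 1.83; edgeR adjusted p = 1.0). Within hAPOE4 mice, females against males gave 0.86 (SE 0.39; edgeR adjusted p = 0.782), and over both sexes hAPOE4 against hAPOE3 gave 0.65 (SE 0.27; edgeR adjusted p = 0.213). Without S144 the contrast in females was 1.46 (edgeR adjusted p = 0.0571) and that over both sexes 0.88 (edgeR adjusted p = 0.052), the lowest adjusted p of the 9 genes in any setting tried. S144 was the only hAPOE3 female with a high sum of fibroblast and meninges markers (349 CPM, described below), so leaving it out made that sum more unequal between the female groups. Without the 4 males with low hippocampal neuron markers, 2 of which were in the higher range of hAPOE4 males and 1 in that of hAPOE3 males, the contrast of females against males in hAPOE4 mice was 1.45 (edgeR adjusted p = 0.211) in place of 0.86, and that of genotype in males was 0.10 (edgeR adjusted p = 0.998) in place of 0.31. Single mice moved the contrast in males between 0.08 without S178 and 0.62 without S158, with 0.15 without S176, and the interaction between 0.38 without S158 and 1.15 without S144. The sex contrast over both genotypes, 0.52, was 0.28 without S144.

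Several marker lists moved with Serping1. The sum of fibroblast and meninges markers, 8 of 8 tested, ran from 183 to 363 CPM in the 8 mice of the higher Serping1 range and from 78.7 to 163 CPM in the other 12. These 8 mice were 1 hAPOE3 male, 2 hAPOE4 males, 1 hAPOE3 female and 4 hAPOE4 females. The limit of 170 CPM between them was set after the values were seen, and 0.801% of the 21724 genes tested, Serping1 the only one of the 9 members, had no overlap between the same sets of mice. Border macrophage markers, 8 of 8 tested, split the same mice without overlap, at 11.8 to 32.0 CPM in the 8 and 5.37 to 11.3 CPM in the 12. Endothelial markers, 8 of 8 tested, summed to 323 to 370 CPM in the 8 and 258 to 327 CPM in the 12, and reactive astrocyte markers to 594 to 776 and 363 to 683 CPM. Choroid plexus markers did not follow as closely: S148 had a choroid sum of 4800 CPM with a fibroblast sum of 163 CPM and 5.58 CPM of Serping1.

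Among the 12 mice with the lower marker sum Serping1 ran from 4.37 to 5.29 CPM in 4 hAPOE3 males, from 4.13 to 5.58 in 3 hAPOE4 males and from 3.85 to 5.58 in 4 hAPOE3 females, and it was 4.85 CPM in 1 hAPOE4 female. With the marker score as a covariate, an alternative added after the data were seen, the Serping1 contrast of hAPOE4 against hAPOE3 females was 0.31 on the log2 scale in place of 1.00, and that in males was -0.06 in place of 0.31. The contrast over both sexes was 0.12 in place of 0.65. The marker genes and Serping1 came from the same libraries, and the sum is itself unequal between the groups, so these markers and the genotype in females cannot be told apart.

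The other 8 members overlapped between the same sets of mice. Median Cd55 was 7.33 CPM in the 8 mice and 4.57 CPM in the other 12, and median C3 was 6.00 and 3.51 CPM. Median C5ar1 was 0.468 and 0.298 CPM. For C4b the medians were 153 and 122 CPM, and for C3ar1 3.11 and 2.90 CPM. The C1q medians were 37.2 and 35.0 CPM for C1qa, 42.0 and 37.2 for C1qb and 32.6 and 31.3 for C1qc. With the marker score as a covariate the Cd55 contrast of hAPOE4 against hAPOE3 was 0.40 in males in place of 0.49, 0.12 in females in place of 0.37 and 0.26 over both sexes in place of 0.43. The Cd55 contrast of females against males was 0.32 in hAPOE3 mice in place of 0.54 and 0.03 in hAPOE4 mice in place of 0.41. Over both genotypes it was 0.18 in place of 0.47.

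**Figure D4:**
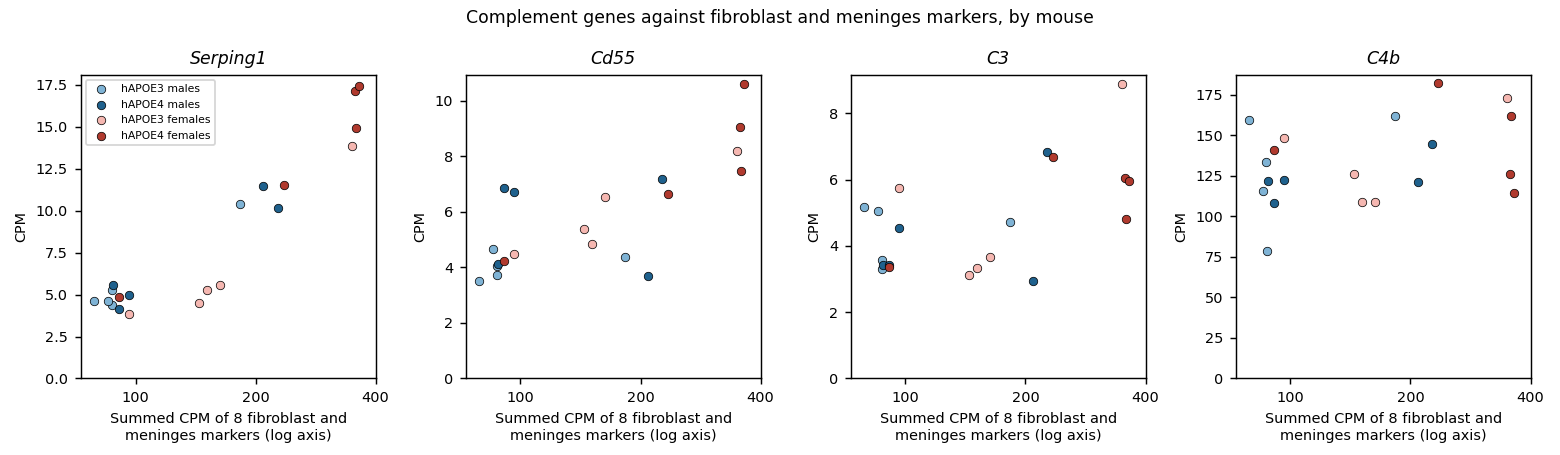
CPM of Serping1, Cd55, C3 and C4b (vertical axes, from 0) against the summed CPM of 8 fibroblast and meninges markers (horizontal log axes), 1 point per mouse, coloured by group. Serping1 is 10.1 to 17.4 CPM in the 8 mice with a sum of 183 CPM or more and at most 5.58 CPM in the other 12, while the values of Cd55, C3 and C4b overlap between these mice.

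Markers of neutrophils, blood cells that carry both anaphylatoxin receptors, summed to 0.0469 to 1.46 CPM, and 0 of 6 passed the filter. A list of hemoglobin and other red cell genes, 5 of 5 tested, summed to 9.17 CPM in S168 and to as much as 197 CPM in S157 and 303 CPM in S144. Border macrophage sums ran to 5.37 to 11.8 and 8.12 to 16.7 CPM in hAPOE3 and hAPOE4 males, and to 5.56 to 22.3 and 7.55 to 32.0 CPM in hAPOE3 and hAPOE4 females. Endothelial sums had medians of 282 and 358 CPM in hAPOE3 and hAPOE4 females. The part of these lists in the values of the complement genes was not tested.

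Deposited normalized counts gave other values for C5ar1, C3 and C4b. The authors' divisor of a count differed by gene and by mouse, and relative to the typical divisor of the mouse it was 0.465 in S168 to 1.30 in S155 for C5ar1, a ratio of 2.79. For C3 the ratio of the highest to the lowest divisor was 2.16 and for C4b it was 1.62, beside a median of 1.11 over all genes tested. For the C1q genes and C3ar1 it was 1.01. On this scale C4b averaged 6000 ± 1560 and 4890 ± 527 normalized counts in hAPOE3 and hAPOE4 males, and 6040 ± 757 and 5880 ± 1020 in hAPOE3 and hAPOE4 females, so that hAPOE4 females were no longer above hAPOE3 females, while 0 of 9 genes passed in limma on these values as well.

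**Figure D5:**
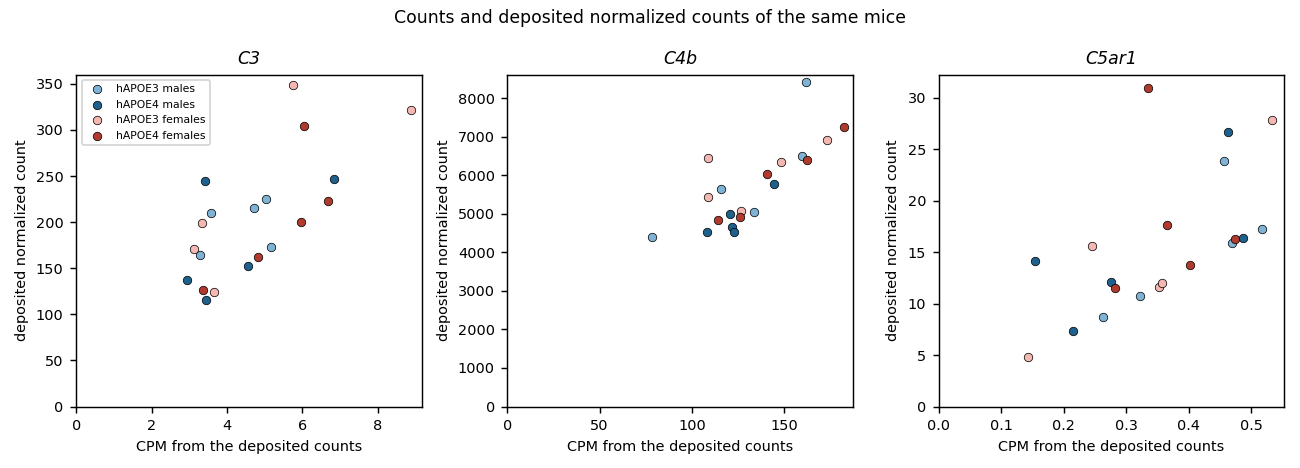
Deposited normalized counts (vertical axes) against CPM from the deposited counts (horizontal axes) of C3, C4b and C5ar1, 1 point per mouse, coloured by group. Points of 1 gene do not fall on a line because the divisor differed between mice by a ratio of up to 2.16 for C3, 1.62 for C4b and 2.79 for C5ar1.

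The rest of the pathway was read from a list of 49 further complement genes, of which 48 were in the table and 36 were tested. In edgeR 0 of 36 passed the threshold in each of the 7 comparisons, in which 0.0414% to 2.45% of all genes did. Between hAPOE4 and hAPOE3 females 6 of 36 had an unadjusted p under 0.05 (16.7%, beside 10.1% of all genes), 5 of them higher in hAPOE4 females, where 776 of all genes were higher and 1420 lower. Between males it was 1 of 36 (2.78%, beside 9.06%). Between the sexes it was 2 of 36 in hAPOE3 mice (5.56%, beside 5.22%) and 5 of 36 in hAPOE4 mice (13.9%, beside 5.8%). The interaction had 1 of 36 (2.78%, beside 2.54%), genotype over both sexes 6 of 36 (16.7%, beside 17.9%) and sex over both genotypes 6 of 36 (16.7%, beside 10%).

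By role, 11 of 16 other classical and lectin pathway genes were tested, 2 of 3 of the alternative pathway, 4 of 7 of the terminal pathway, 6 of 7 other receptors and 13 of 16 other regulators. The following were named after their values were seen. C1ra, a protease of the C1 complex that Serping1 inhibits, averaged 2.45 ± 0.528 CPM in hAPOE3 females and 3.84 ± 1.09 in hAPOE4 females, a log2 fold change of 0.65 (SE 0.18; edgeR adjusted p = 0.119). It ran from 2.71 to 4.89 CPM in the 8 mice with the higher fibroblast and meninges sum and from 2.03 to 2.92 CPM in the other 12. For C1ra too, these markers and the genotype in females cannot be told apart. Cd46, listed as a regulator, ran from 11.4 to 14.8 CPM in hAPOE3 females and from 8.33 to 10.8 CPM in hAPOE4 females. These ranges did not overlap, as for 3.27% of all genes, and the log2 fold change was -0.36 (SE 0.17; edgeR adjusted p = 0.495). Itgax, a chain of complement receptor 4, averaged 0.765 ± 0.459 and 0.637 ± 0.386 CPM in hAPOE3 and hAPOE4 males and 1.65 ± 0.577 and 1.88 ± 0.617 CPM in hAPOE3 and hAPOE4 females. Over both genotypes Itgax gave a log2 fold change of females against males of 1.31 (SE 0.27; edgeR adjusted p = 0.074), the closest of the 36 to the threshold.

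Of these 36 genes, C2, the protease cleaved beside C4, and Colec12, a collectin with a scavenger receptor's build, shared with Serping1 the separation by fibroblast and meninges markers. C2 was 3.75 to 8.25 CPM in the 8 mice and 1.86 to 3.36 CPM in the other 12. Colec12 was 6.57 to 15.8 CPM and 2.87 to 4.67 CPM.

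Genes whose log2 CPM followed the members most closely over the 20 mice were listed among 12800 genes, as a description of libraries that share their depth and composition. For the mean of C1qa, C1qb and C1qc they were Ufsp1 (r = 0.920), Phf23 (0.905), Pld4 (0.903), Ilk (0.896) and Nol3 (0.895). For C4b they were Abca8a (0.732), Kcnn3 (0.730), Ugt8a (0.729), Calcrl (0.721) and Bmp2k (0.707). For C3 they were Thbs2 (0.819), Itgb1 (0.805), Abca8a (0.792), Parp9 (0.789) and Wls (0.785). After subtraction of the group means the same 15 correlations lay between 0.736 and 0.922.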

How the data were processed

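Estimated counts per gene of 20 hippocampi, each from its own mouse per the labels, were used as deposited. The authors made them from polyA-enriched paired-end libraries with Salmon 0.91 (per the processing notes) against mouse cDNA and with tximport, and they were already whole numbers. Deposited normalized counts, a signal that the authors derived with DESeq2 from the counts with a divisor specific to gene and mouse, served alternatives only. All sample columns were matched by mouse name and 0 were left out. The test was edgeR 4.0.16 (R 4.3.3) on the counts (TMM, filterByExpr by group, glmQLFit and glmQLFTest, 1 mean per group, Benjamini-Hochberg), two-sided, after a check on simulated counts. Standard errors are those of the fitted fold change. Alternatives used DESeq2 1.42.0, limma 3.58.1 on log2(value + 1) of the normalized counts, other normalization, no filter, no mitochondrial genes, only the groups compared, each mouse left out, and 3 alternatives added later. Correlations used log2 CPM (prior count 2) and two-sided permutation tests with 100000 resamples. All 9 members were named whatever their value; of the other complement genes, those past the threshold were to be named, and of genes most alike the 5 with the highest r among genes with a mean log2 CPM above 2. Members and lists were chosen with earlier results of these data known. Positions and exon lengths are from the GENCODE annotation of GRCm38, matched by symbol; the authors' cDNA set may differ from it. Imaging, histology and metabolite measurements of the study were not used here. Values of 1 listed gene are not reported here.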

Additional observations from a re-analysis of the deposited data

Results flagged for a closer look

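In 36 groups of 5 mice (9 genes in 4 groups), the highest or lowest value was compared with its nearest neighbour by Dixon's test at the 95% level, which sets apart about 1 group in 20 by chance. It set apart 2 values, a number near that rate. Both were of Serping1, whose 2 ranges are described above, so these flags are no separate result. Among hAPOE3 males S158 had 10.4 CPM of Serping1, while the other 4 lay between 4.37 and 5.29 CPM. Among hAPOE3 females S144 had 13.8 CPM of Serping1, while the other 4 lay between 3.85 and 5.58 CPM. Both mice had a fibroblast and meninges marker sum, 183 CPM in S158 and 349 CPM in S144, above those of the other 4 mice of their group, and its part in the Serping1 values was not tested beyond the covariate given with the report's values.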

How the results depend on the processing

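The number of complement genes past the threshold was 0 under every alternative run, and 0 of 1386 single fold changes passed, with a lowest adjusted p of 0.052 by edgeR. Directions turned as follows on the log2 scale, and the cause was not tested. The near-zero C1qa contrast of females against males in hAPOE4 mice became 0.0057 with DESeq2, 0.0047 with DESeq2's size factors, 0.013 without the filter, 0.0035 without mitochondrial genes and 0.019 with limma on the normalized counts. With the same limma fit, hAPOE4 against hAPOE3 became -0.15 for C3 and -0.045 for C4b in females, and -0.17 for C3, -0.15 for C4b and 0.19 for C5ar1 over both sexes, and females against males over both genotypes became 0.035 for C5ar1. Chosen after seeing the data, the fibroblast and meninges score as a covariate gave -0.059 for Serping1 between genotypes in males, and -0.043 for C1qb, -0.17 for C3 and -0.14 for C5ar1 in females. It gave -0.18 for C3 and -0.051 for C4b between genotypes over both sexes. Between sexes it gave -0.15 for C3, -0.069 for C4b and -0.50 for Serping1 in hAPOE3 mice, -0.095 for C1qb, -0.12 for C3, -0.14 for Serping1 and -0.23 for C5ar1 in hAPOE4 mice, and -0.13 for C3 and -0.32 for Serping1 over both genotypes. Without the 8 mice with high marker sums, also chosen after seeing the data and possible only where 3 or more mice of each group were left, the C3 contrast between sexes in hAPOE3 mice became -0.12. Without the 4 males with low hippocampal neuron markers, chosen after seeing the data as well, the sex contrast became -0.037 for C4b in hAPOE3 mice, 0.19 for C1qa and 0.14 for C1qc in hAPOE4 mice, and 0.041, 0.062, 0.017 and 0.36 for C1qa, C1qb, C1qc and C5ar1 over both genotypes, and the genotype contrast over both sexes became -0.081 for C3 and -0.048 for C4b. With each mouse left out in turn, directions turned in 18 contrasts. Between genotypes in males the ranges were -0.28 to 0.067 for C3, -0.21 to 0.020 for C4b and -0.12 to 0.046 for C3ar1. In females they were -0.0021 to 0.12 for C1qb and -0.0041 to 0.44 for C3, and over both sexes -0.079 to 0.20 for C3, -0.043 to 0.084 for C4b and -0.18 to 0.035 for C5ar1. Between sexes in hAPOE3 mice they were -0.14 to 0.31 for C3, -0.093 to 0.13 for C4b and -0.29 to 0.49 for Serping1. In hAPOE4 mice they were -0.061 to 0.070 for C1qa, -0.042 to 0.14 for C1qb and -0.17 to 0.010 for C1qc, and over both genotypes -0.17 to 0.049 for C5ar1. For the interaction they were -0.0066 to 0.23 for C1qc, -0.17 to 0.0042 for C3ar1 and -0.27 to 0.030 for Cd55. The other contrasts kept their direction. C5ar1 had the lowest depth of the 9 genes, with 5 to 28 counts per mouse. No paired analysis was possible because the groups hold different mice, for which the labels give neither a pairing nor replicate numbers.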
